A study of Mus musculus with 12 samples.

Results

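The genes described here are 36 genes that mark resting astrocytes of the mouse brain: transporters, gap junction and channel proteins, metabolic enzymes, secreted proteins, transcription factors and metallothioneins. They were chosen by symbol from a list set with earlier results of these data known. Each symbol matched 1 row of a table of 55401 gene IDs. All 36 passed the filter on low counts, beside 21958 genes tested in all. The tissue was the medial prefrontal cortex (mPFC) of male mice, 2 weeks into the extinction of a conditioned place preference, a learned preference for a chamber paired with a drug.

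Each of 3 groups had 4 libraries. The knockdown morphine group received an adeno-associated virus (AAV) against the serotonin receptor 5-HT6R together with morphine. The scramble morphine group received a scramble AAV with morphine, and the scramble saline group received the same scramble AAV with saline. All 12 libraries thus come from virus-injected animals, and no group had the knockdown without morphine. The sources used here do not state the promoter of the viruses, the cells they reached, the morphine dose, the age and strain of the mice or how many animals lie behind each library. Values measure the spread between these libraries, which may be technical in part. The design text places the comparisons in a search for genes downstream of lower 5-HT6R during extinction.

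Astrocytes are the glial cells that clear glutamate and potassium around synapses, supply neurons with glutamine and metabolic fuel, and cover blood vessels with endfeet. Glutamate is taken up by the transporters encoded by Slc1a2 and Slc1a3 and turned into glutamine by glutamine synthetase (Glul). Neighbouring astrocytes are joined by gap junctions made of connexins (Gja1, Gjb6), water passes through Aqp4, and lipid leaves the cells bound to apolipoprotein E (Apoe). Lower levels of such genes in whole tissue can come from fewer astrocytes, less RNA per astrocyte or other cells that express them. These cannot be told apart here.

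Total counts per library ran from 41483220 to 65739423. Htr6, the gene of the targeted receptor, stood at 4.76 ± 0.76 CPM (read counts relative to the TMM-scaled size of the library) with knockdown and morphine, against 5.21 ± 0.32 with scramble and morphine (SD, n = 4 each). On the log2 scale the fold change was -0.13 (SE 0.18, edgeR adjusted p = 0.823), so a lower level was not detectable in this tissue RNA. The ribosomal RNA locus CT010467.1 took 4.57 to 9.38% of counts in knockdown morphine, 2.38 to 3.04% in scramble morphine and 3.58 to 5.63% in scramble saline libraries. The scramble morphine range overlapped neither of the others. In comparisons with that group, a fit with this share as a covariate cannot tell it apart from virus or drug. The 3 comparisons share their groups pairwise, so they are not independent of each other.

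All 36 genes were counted in every library, and their levels differed widely when counted per length. Apoe was the most abundant, at 838 ± 102 CPM per kilobase of exon with knockdown and morphine, 1030 ± 145 with scramble and morphine and 922 ± 131 with scramble and saline (SD, n = 4 each). Cst3, the secreted protease inhibitor cystatin C, followed at 449 ± 70.2, 616 ± 90.4 and 506 ± 90.5 CPM per kilobase in the same order of groups. Glul stood at 478 ± 18.7, 456 ± 32.8 and 397 ± 36.2. Glul stood above Cst3 with knockdown and morphine and below it in both scramble groups, and the ranges of both genes overlapped with knockdown and morphine and with scramble and saline. At the low end were Gldc, Prodh and Cbs, enzymes of glycine, proline and homocysteine metabolism, with means over all libraries of 4.56, 3.73 and 3.61 CPM per kilobase. These places depend on the annotated exon length. In CPM, Hes5 stood lower, at 8.62 with knockdown and morphine against 27.45 for Cbs. The transcription factors Sox9 and Hes5 stood at 7.25 and 7.07 CPM per kilobase, a difference within the spread of either gene.

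**Figure D1:**
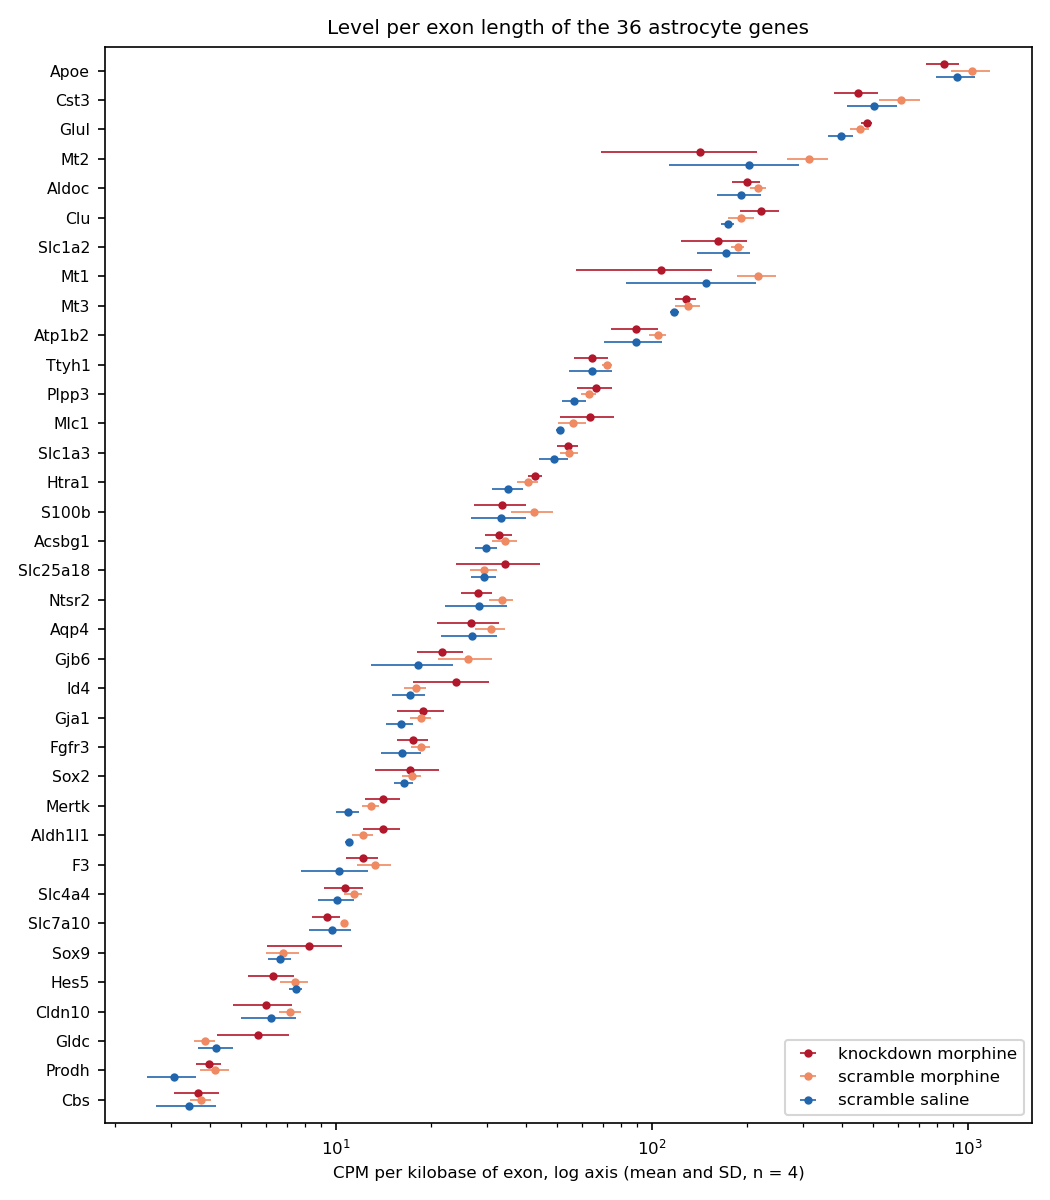
Mean level of the 36 astrocyte genes in CPM per kilobase of exon on a log axis, with the SD over 4 libraries, by group. Apoe is at the top with 930 CPM per kilobase over all libraries and Cbs at the bottom with 3.61, and the groups lie close together for most genes.

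Within each group, single libraries stood apart for most of the astrocyte genes at once. Scramble morphine replicate 4 was the lowest of its group for 33 of 36 genes, a place it held for 30.64% of all genes tested. Scramble saline replicate 4 was the lowest of its group for 25 of 36 (30.14% of all genes). Knockdown replicate 5 was the highest of its group for 20 of 36 (28.47% of all genes), and knockdown replicate 2 was the lowest for 20 (27.26%).

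For 18 genes, among them Slc1a2, Slc1a3, Mt1, Mt2, Cst3, S100b and Glul, the lowest saline library was replicate 4 and the highest knockdown library was replicate 5 at once, a pattern found in 13.24% of all genes tested. Sox9, Gldc and Id4 showed the opposite, with saline replicate 4 highest and knockdown replicate 5 lowest, a pattern found in 12.88% of all genes tested. The log2 difference of saline replicate 4 from the other saline libraries was -0.57 for Slc1a2, -0.96 for Gjb6 and -1.59 for Mt1, and 0.30 for Gldc and 0.31 for Id4. Summed over the 36 genes, the knockdown morphine libraries 1, 2, 3 and 5 held 10950, 10024, 10804 and 12354 CPM, the scramble morphine libraries 1, 3, 4 and 5 held 12970, 12718, 10862 and 12308 CPM, and the scramble saline libraries 2, 3, 4 and 5 held 10659, 11372, 8745 and 12194 CPM. The groups overlapped in this sum. Values per library are given below in this order of replicates throughout.

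**Figure D2:**
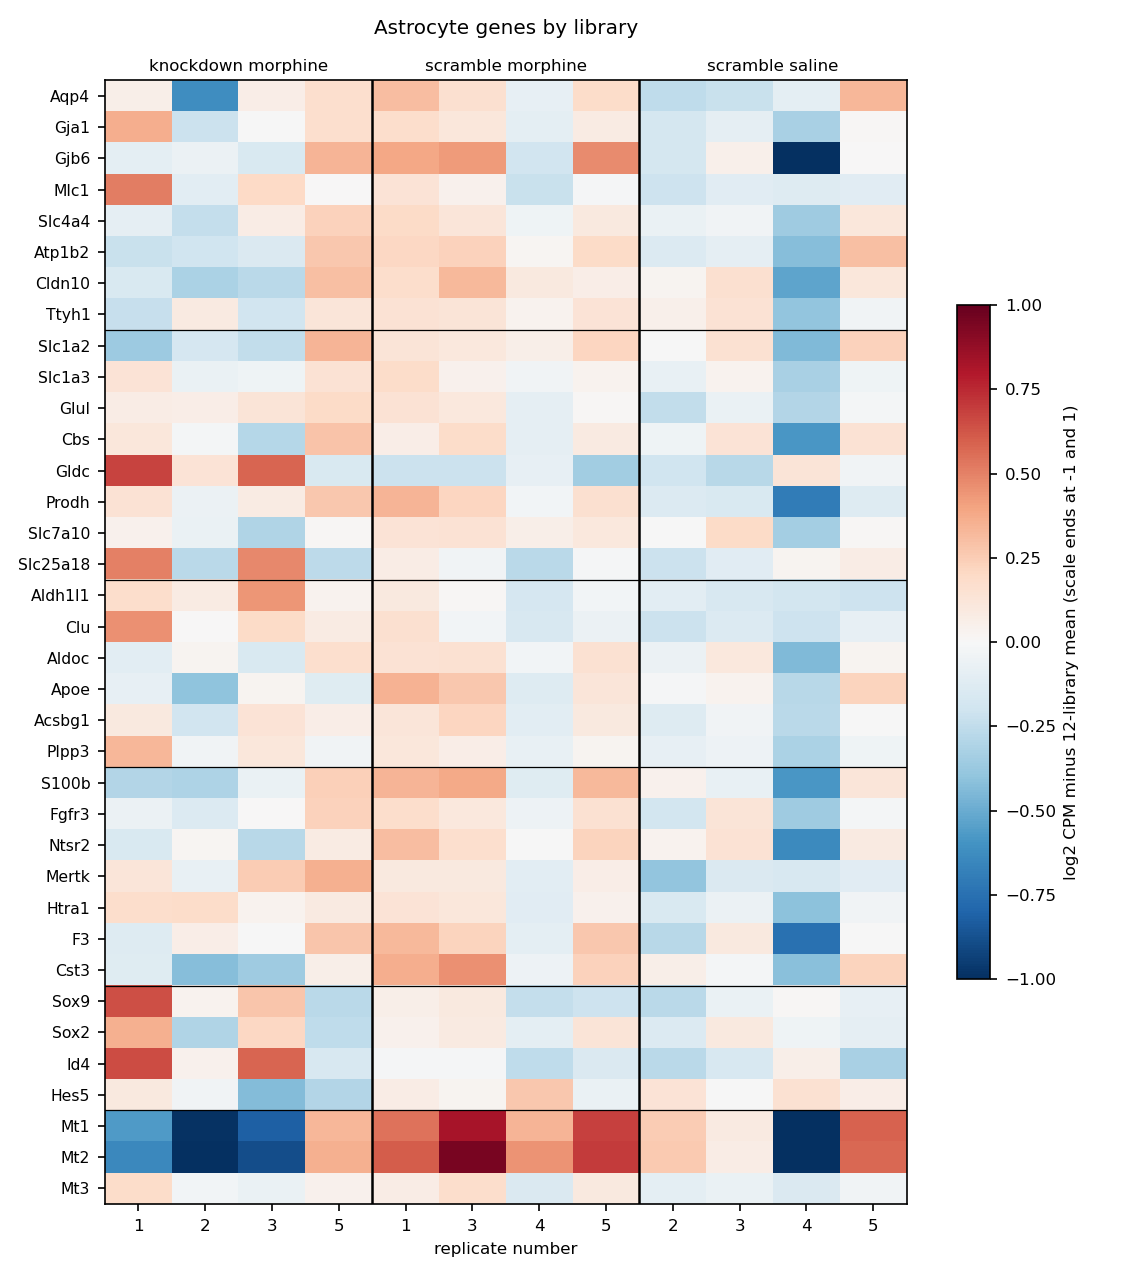
Log2 CPM of each astrocyte gene in each library minus the mean of that gene over 12 libraries, with genes ordered by role and colours ending at -1 and 1. The column of scramble saline replicate 4 is blue for most genes, with a median of -0.34, and its highest values are 0.16 for Hes5 and 0.13 for Gldc.

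With the scramble virus, morphine against saline, the astrocyte genes stood slightly higher as a body and no single gene passed the test. Of 36 genes 33 had a log2 fold change above 0, the median being 0.18, while 10878 of all 21958 genes tested were above 0 and their median was -0.0012. Single libraries stood apart for most of the 36 genes at once, so counts of genes here and below are not independent observations. The summed level of the 36 genes overlapped between these groups. The largest values were those of Mt2 (0.63, SE 0.41), Mt1 (0.55, SE 0.40), Gjb6 (0.52, SE 0.22) and Prodh (0.44, SE 0.12). The values below 0 were those of Gldc (-0.13, SE 0.15), Hes5 (-0.0095, SE 0.13) and Slc25a18 (-0.0005, SE 0.17).

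With edgeR's quasi-likelihood test and Benjamini-Hochberg adjustment over all genes, 0 of 36 were called at an adjusted p under 0.05, as were 0% of all genes, and the smallest adjusted p of the 36 was 0.999. At an unadjusted p under 0.05, 7 of 36 were higher (Prodh, Glul, Mertk, Htra1, F3, Acsbg1 and Gjb6) against 1.67% of all genes, and 0 were lower against 1.82%. DESeq2 called 0 of 36, against 0.0182% of its genes. The morphine and saline libraries did not overlap for Prodh and Mertk, both higher with morphine, against 1.55% of all genes on that side, and for none of the 36 on the lower side, against 1.77%. Without saline replicate 4 the median log2 fold change was 0.12.

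With morphine in both groups, 5-HT6R knockdown against scramble, the astrocyte genes did not stand on one side of 0. Of 36 genes, 12 were above 0 and 24 below, with a median of -0.07, against a median of 0.0040 over all genes. That median was -0.02 without knockdown replicate 2, -0.15 without knockdown replicate 5, -0.05 without scramble morphine replicate 1 and -0.13 without scramble morphine replicate 4. Mt2 (-1.14, SE 0.42) and Mt1 (-1.02, SE 0.40) had the lowest values, followed by Cst3 (-0.46, SE 0.14), S100b (-0.33, SE 0.16) and Apoe (-0.30, SE 0.12). The highest were those of Gldc (0.56, SE 0.15) and Id4 (0.43, SE 0.16).

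In that comparison edgeR called 0 of 36 at an adjusted p under 0.05, as it called 0% of all genes, and the smallest adjusted p of the 36 was 0.272, for Gldc. At an unadjusted p under 0.05, 4 were higher (Gldc, Id4, Aldh1l1, Clu) against 5.87% of all genes, and 4 lower (Cst3, Mt2, Apoe, Mt1) against 6.18%. DESeq2 called 1 of 36, Gldc (adjusted p = 0.0462), against 0.828% of its genes. Groups did not overlap for Slc7a10, Mt1 and Mt2, all lower with knockdown, against 3.26% of all genes, and for none of the 36 on the higher side, against 2.59%.

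The 2-library pattern described above bears on this comparison. Without knockdown replicate 5, edgeR called Gldc at 0.69 (SE 0.12, adjusted p = 0.0239) among 375 genes in all, 1.66% of those tested. In a fit chosen after seeing the data, which left out saline replicate 4 and knockdown replicate 5 together, edgeR called 10 of 36: Slc1a2, S100b, Ntsr2, Atp1b2, Cldn10, Mt1, Mt2 and Cst3 lower and Gldc and Id4 higher with knockdown, among 1284 genes in all, 5.77% of those tested. Saline replicate 4 belongs to neither group here and enters only through the filter, scaling and spread shared by all libraries. Both libraries were picked for standing apart, so leaving them out narrows that spread by construction. Leaving out knockdown replicate 5 also shifts the mean of its group. These calls thus describe the other 10 libraries only.

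Knockdown with morphine against scramble with saline differs in both virus and drug. In it 26 of 36 genes were above 0. Their median was 0.12 on the log2 scale, against -0.0019 over all genes, and it was 0.07 without saline replicate 4. Id4 (0.49, SE 0.16), Gldc (0.43, SE 0.15), Prodh (0.37, SE 0.12), Mertk (0.37, SE 0.09), Aldh1l1 (0.36, SE 0.08) and Clu (0.35, SE 0.09) stood highest. Mt2 (-0.51, SE 0.42) and Mt1 (-0.48, SE 0.40) stood lowest.

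Here edgeR called 0 of 36 genes and 0.0137% of all genes, and the smallest adjusted p among the 36 was 0.290, for Aldh1l1 and Mertk. At an unadjusted p under 0.05, 11 of 36 were higher, against 4.97% of all genes, and 0 were lower, against 4.37%. DESeq2 called 4 of 36, Aldh1l1, Clu, Glul and Mertk, all higher, with adjusted p from 0.0250 to 0.0437, against 0.831% of its genes. Groups did not overlap for 8 genes, all higher with knockdown and morphine (Aldh1l1, Clu, Glul, Mlc1, Prodh, Mertk, Plpp3 and Htra1), against 2.18% of all genes, and for none on the lower side, against 2.16%. Without saline replicate 4 and knockdown replicate 5 together the median was -0.0039 with 18 of 36 above 0, and edgeR called 6 of 36, against 4.85% of all genes: Aldh1l1, Gldc and Id4 higher and Slc1a2, Mt1 and Mt2 lower. Here too the libraries were picked for standing apart, so these calls describe the remaining libraries only.

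**Figure D3:**
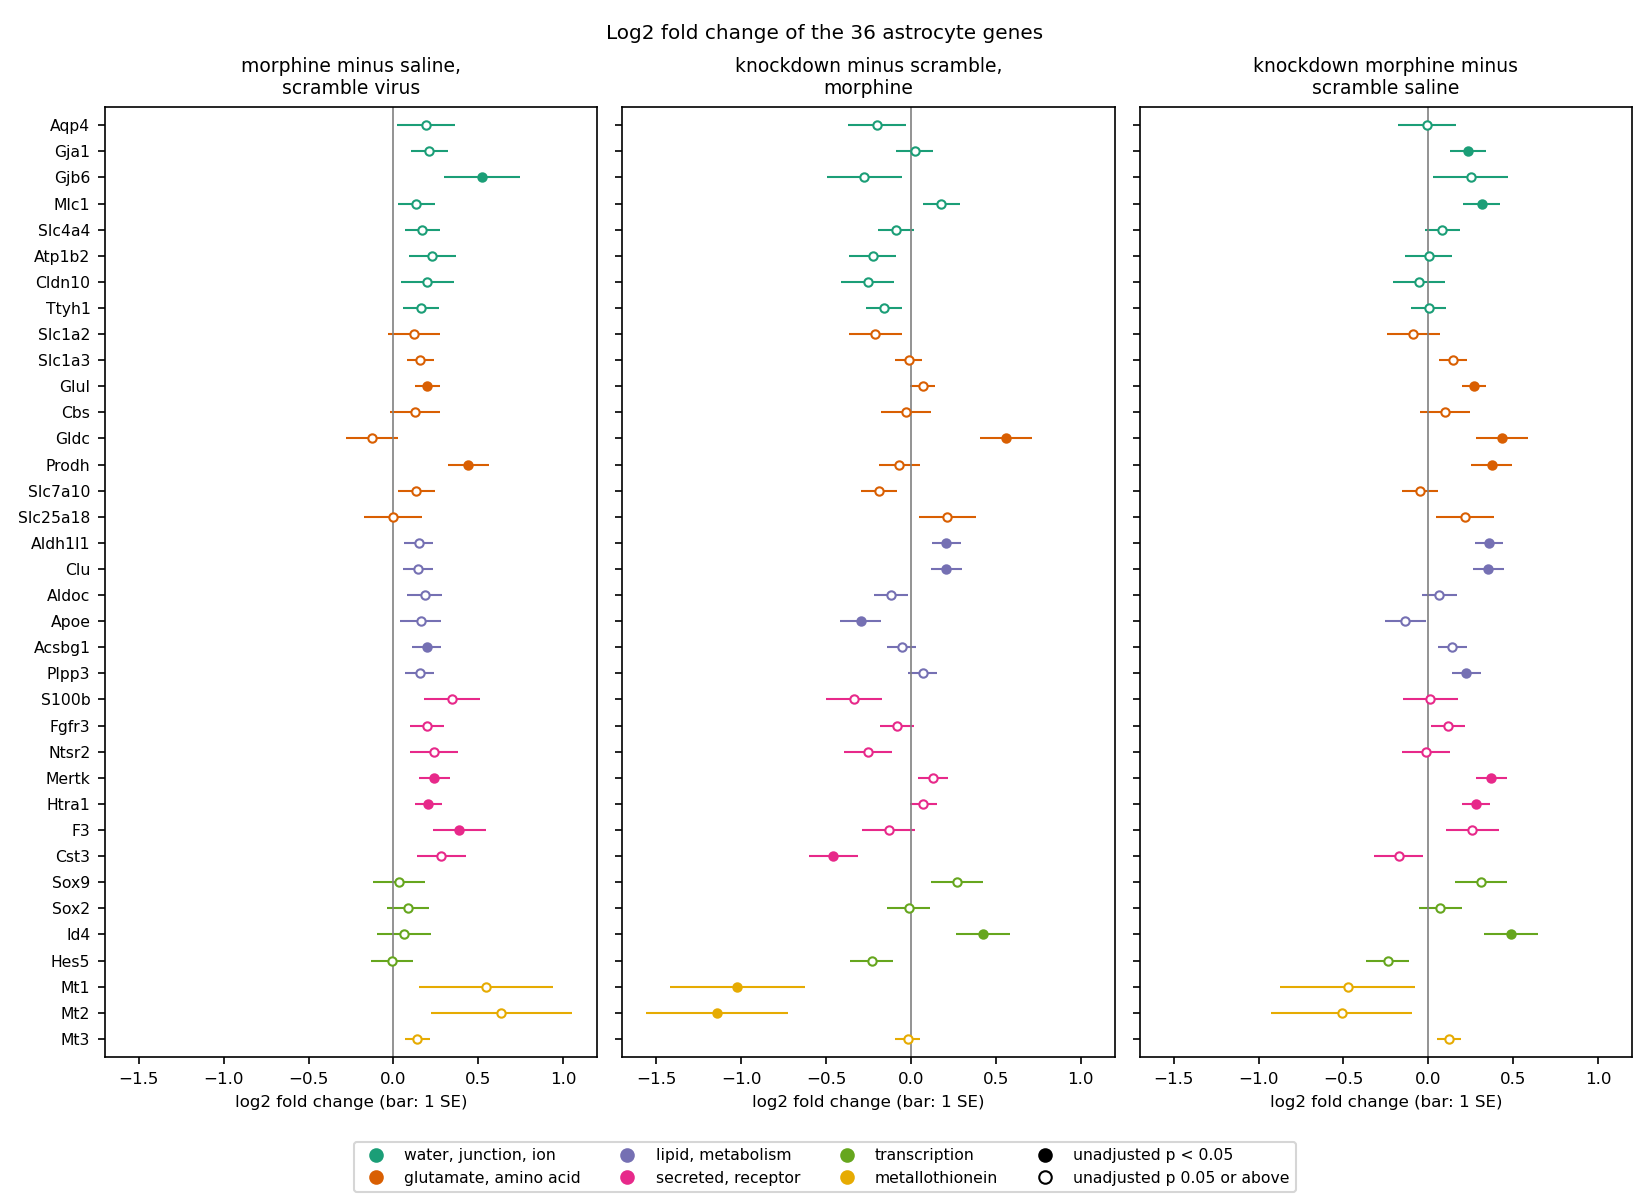
Log2 fold change of the 36 astrocyte genes in the 3 comparisons (bars, 1 SE), coloured by role, with filled points at an unadjusted edgeR p under 0.05. With morphine against saline 33 of 36 points lie right of 0, and with knockdown against scramble the points of Mt1 and Mt2 lie furthest left, at -1.02 and -1.14.

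Among the channel, junction and ion transport genes, groups overlapped in every comparison except for Mlc1, a membrane protein of endfeet, with 147 to 225 CPM with knockdown and morphine against 137 to 146 CPM with scramble and saline. Aqp4, the water channel of endfeet, had 180.3, 113, 182 and 195 CPM in knockdown morphine libraries, 215, 194, 164 and 198 CPM in scramble morphine libraries and 146, 149, 162 and 218 CPM in scramble saline libraries. Knockdown replicate 2 was the lowest of all 12 and saline replicate 5 the highest. Gja1, the main connexin of astrocytes, had 233, 156, 181 and 204 CPM with knockdown and morphine, 204, 196, 170 and 192 CPM with scramble and morphine, and 160.5, 169.9, 144 and 183 CPM with scramble and saline. All 3 groups overlapped for Gja1, and knockdown replicate 1 was highest.

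The 8 genes of this kind all lay above 0 with morphine against saline, from 0.13 for Mlc1 to 0.52 for the connexin gene Gjb6. With knockdown against scramble 6 of the 8 lay below 0, and edgeR called 0. Slc4a4, a sodium bicarbonate transporter, Ttyh1, a tweety family membrane protein, and Cldn10, a claudin, had log2 fold changes of -0.09, -0.16 and -0.25 there, and of 0.17, 0.16 and 0.20 with morphine against saline. Gjb6 had 28.4 CPM in saline replicate 4, against 50.3 to 58.9 CPM in the other saline libraries. Atp1b2, a subunit of the sodium pump, stood at 458 CPM in knockdown replicate 5, against 327 to 344 CPM in the other knockdown libraries. Without saline replicate 4 and knockdown replicate 5, its log2 fold change with knockdown against scramble was -0.35 (SE 0.09, edgeR adjusted p = 0.038), in place of -0.23 (SE 0.14, adjusted p = 0.535) with all libraries. That fit was chosen after seeing the data and narrows the spread by construction.

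The glutamate cycle genes did not move as 1 block. Slc1a2, the main glutamate transporter of the forebrain, had 1751, 2000, 1898 and 2851 CPM in knockdown morphine libraries, 2455, 2426, 2339 and 2611 CPM in scramble morphine libraries and 2242, 2499, 1653 and 2640 CPM in scramble saline libraries. Replicates 1, 2 and 3 of the knockdown lay below every scramble morphine library, and replicate 5 above them all. Its log2 fold change with knockdown against scramble was -0.21 (SE 0.15, edgeR adjusted p = 0.624), and -0.38 (SE 0.07, adjusted p = 0.00781) without saline replicate 4 and knockdown replicate 5. The second value comes from the fit chosen after seeing the data, and it describes the remaining libraries only.

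Slc1a3, the second glial glutamate transporter, had 494, 429, 436 and 495 CPM with knockdown and morphine, 511, 462, 438 and 461 CPM with scramble and morphine, and 425, 459, 359 and 434 CPM with scramble and saline. The groups overlapped in all comparisons, and saline replicate 4 was the lowest library. Glul, glutamine synthetase, had 1548, 1536, 1602 and 1672 CPM in knockdown morphine libraries, 1622, 1578, 1377 and 1482 CPM in scramble morphine libraries and 1236, 1398, 1198 and 1444 CPM in scramble saline libraries. Every knockdown morphine library exceeded every saline library, and the scramble morphine libraries overlapped both. The log2 fold changes of Glul were 0.20 (SE 0.07, edgeR adjusted p = 0.999) for morphine against saline and 0.27 (SE 0.07, adjusted p = 0.330) for knockdown and morphine against scramble and saline.

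Prodh, proline dehydrogenase, the first enzyme of proline breakdown, had 31.6, 27.5, 30.2 and 34.5 CPM with knockdown and morphine, 36.3, 33.3, 28.1 and 32.1 CPM with scramble and morphine, and 26.0, 25.8, 17.6 and 26.2 CPM with scramble and saline. All 8 libraries that received morphine lay above all 4 saline libraries. The log2 fold change was 0.44 (SE 0.12) for morphine against saline and 0.37 (SE 0.12) for knockdown and morphine against scramble and saline, with edgeR adjusted p of 0.999 and 0.377.

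Gldc, the decarboxylase of the glycine cleavage system, had 43.4, 29.7, 40.5 and 24.4 CPM in knockdown morphine libraries, 23.3, 23.4, 25.7 and 21.2 CPM in scramble morphine libraries and 23.7, 22.4, 29.7 and 26.4 CPM in scramble saline libraries. Knockdown replicates 1, 2 and 3 lay above all scramble morphine libraries and replicate 5 lay within them. The fold with knockdown against scramble was 1.48. Slc7a10, a transporter of small neutral amino acids, had 16.9 to 21.4 CPM with knockdown and morphine against 21.7 to 23.0 CPM with scramble and morphine, without overlap, at a log2 fold change of -0.19 (SE 0.11, edgeR adjusted p = 0.502). Its exons share 17.9% of their length with Lrp3 on the opposite strand, which had a mean count of 4855 against 1171 for Slc7a10, and whether counting used the strand is not given in the sources used here. Slc25a18, a mitochondrial glutamate carrier, and Cbs stayed between -0.03 and 0.22 in every comparison.

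Of the 6 lipid and metabolic genes, 3 separated knockdown and morphine from scramble and saline without overlap, all higher, against 2.18% of all genes on that side: Aldh1l1, Clu and Plpp3. Aldh1l1, a folate enzyme used as a general astrocyte marker, had 62.9, 58.8, 75.6 and 56.9 CPM in knockdown morphine libraries, 59.6, 56.1, 49.5 and 54.7 CPM in scramble morphine libraries and 51.7, 49.7, 49.1 and 48.1 CPM in scramble saline libraries. The 4 knockdown libraries lay above the 4 saline libraries, and the scramble morphine group overlapped both. The fold between knockdown morphine and scramble saline was 1.28, with an edgeR adjusted p of 0.290 and a DESeq2 adjusted p of 0.0250.

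Clu, clusterin, a secreted chaperone and apolipoprotein, had 915, 669, 763 and 705 CPM with knockdown and morphine, 746, 654, 598 and 643 CPM with scramble and morphine, and 575, 607, 577 and 630.2 CPM with scramble and saline. Again every knockdown morphine library was above every saline library. Its log2 fold change with knockdown against scramble was 0.21 (SE 0.09, edgeR adjusted p = 0.387), and -0.02 once the share of CT010467.1 entered the fit. That share did not overlap between these groups, so share and virus cannot be told apart.

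Apoe had 1862, 1491, 2008 and 1808 CPM in knockdown morphine libraries, 2509, 2366, 1797 and 2135 CPM in scramble morphine libraries and 1948, 2013, 1621 and 2301 CPM in scramble saline libraries. Scramble morphine replicate 4 lay among the knockdown libraries, the other scramble morphine libraries above them, and the saline libraries spanned both. Its fold with knockdown against scramble was 0.814 (edgeR adjusted p = 0.363). Clu and Apoe, both apolipoproteins, thus stood on opposite sides of 0 in that comparison, and neither passed the test. Aldoc, the brain form of aldolase, Acsbg1, a fatty acid activating enzyme, and Plpp3, a lipid phosphatase, had log2 fold changes of -0.12, -0.06 and 0.07 there, and of 0.18, 0.20 and 0.15 with morphine against saline.

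Of the secreted and surface genes, Mertk, a receptor kinase of phagocytosis, had 59.0, 51.6, 64.9 and 69.5 CPM with knockdown and morphine, 58.1, 58.2, 50.6 and 56.9 CPM with scramble and morphine, and 41.3, 49.3, 48.6 and 50.3 CPM with scramble and saline. All libraries that received morphine exceeded all saline libraries, although the gap between scramble morphine replicate 4 and saline replicate 5 was narrow. The log2 fold changes were 0.24 (SE 0.09, edgeR adjusted p = 0.999) for morphine against saline and 0.37 (SE 0.09, adjusted p = 0.290) for knockdown and morphine against scramble and saline.

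Htra1, a secreted protease, had 127, 128, 115 and 120.1 CPM in knockdown morphine libraries, 124, 122, 104 and 116 CPM in scramble morphine libraries and 101, 108, 84.7 and 109.8 CPM in scramble saline libraries. Knockdown morphine and scramble saline did not overlap, and saline replicate 4 was the lowest of all. Cst3 had 599, 485, 509 and 679 CPM with knockdown and morphine, 837, 891, 627 and 765 CPM with scramble and morphine, and 677, 641, 487 and 760.3 CPM with scramble and saline. Knockdown replicate 5 exceeded scramble morphine replicate 4, which alone made these groups overlap. The fold of Cst3 with knockdown against scramble was 0.728 (edgeR adjusted p = 0.310).

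S100b, a calcium-binding protein gene, had 43.4, 42.8, 50.8 and 62.7 CPM in knockdown morphine libraries, 67.3, 69.1, 48.7 and 66.5 CPM in scramble morphine libraries and 54.7, 50.3, 35.5 and 57.6 CPM in scramble saline libraries. Scramble morphine replicate 4 fell among the knockdown values, and the other 3 scramble morphine libraries were above every library of the other groups. F3, the clotting initiator tissue factor, had log2 fold changes of 0.39 (SE 0.16) with morphine against saline and -0.13 (SE 0.15) with knockdown against scramble. Fgfr3, a growth factor receptor, and Ntsr2, a neurotensin receptor, stood at 0.20 and 0.24 with morphine against saline and at -0.08 and -0.25 with knockdown against scramble, none of them past the test.

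Among the 4 transcription genes, Sox9, which drives astrocyte fate, had 46.0, 30.3, 35.8 and 24.5 CPM with knockdown and morphine, 30.7, 31.6, 25.0 and 25.6 CPM with scramble and morphine, and 24.4, 28.1, 29.8 and 27.9 CPM with scramble and saline. The knockdown group held both the highest and nearly the lowest value. Id4, an inhibitor of helix-loop-helix factors, had 116, 76.0, 111 and 66.3 CPM in knockdown morphine libraries, 73.2, 73.4, 61.9 and 66.9 CPM in scramble morphine libraries and 61.2, 66.2, 77.1 and 58.9 CPM in scramble saline libraries.

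Replicates 1 and 3 of the knockdown were the highest of all 12 libraries for Id4, Gldc and Sox9 alike, and knockdown replicate 5 was the lowest of its group for all of them. Hes5, a target of Notch signalling, had 10.2, 9.34, 7.09 and 7.82 CPM with knockdown and morphine, 10.1, 9.73, 11.5 and 9.14 CPM with scramble and morphine, and 10.5, 9.55, 10.7 and 9.99 CPM with scramble and saline. Its log2 fold change with knockdown against scramble was -0.23 (SE 0.13, edgeR adjusted p = 0.478), while the 15 genes of a Notch pathway list had a median of 0.20, with 5 higher, against 5.87% of all genes, and 0 lower, against 6.18%, at an unadjusted p under 0.05 and 0 called. Groups did not overlap for 1 of the 15 on the higher side, against 2.59% of all genes, and 2 on the lower side, against 3.26%. The smallest unadjusted p were those of Maml1, a coactivator of Notch (0.41, SE 0.11), and the receptor gene Notch1 (0.33, SE 0.10). Sox2 stayed between -0.01 and 0.08 in every comparison.

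**Figure D4:**
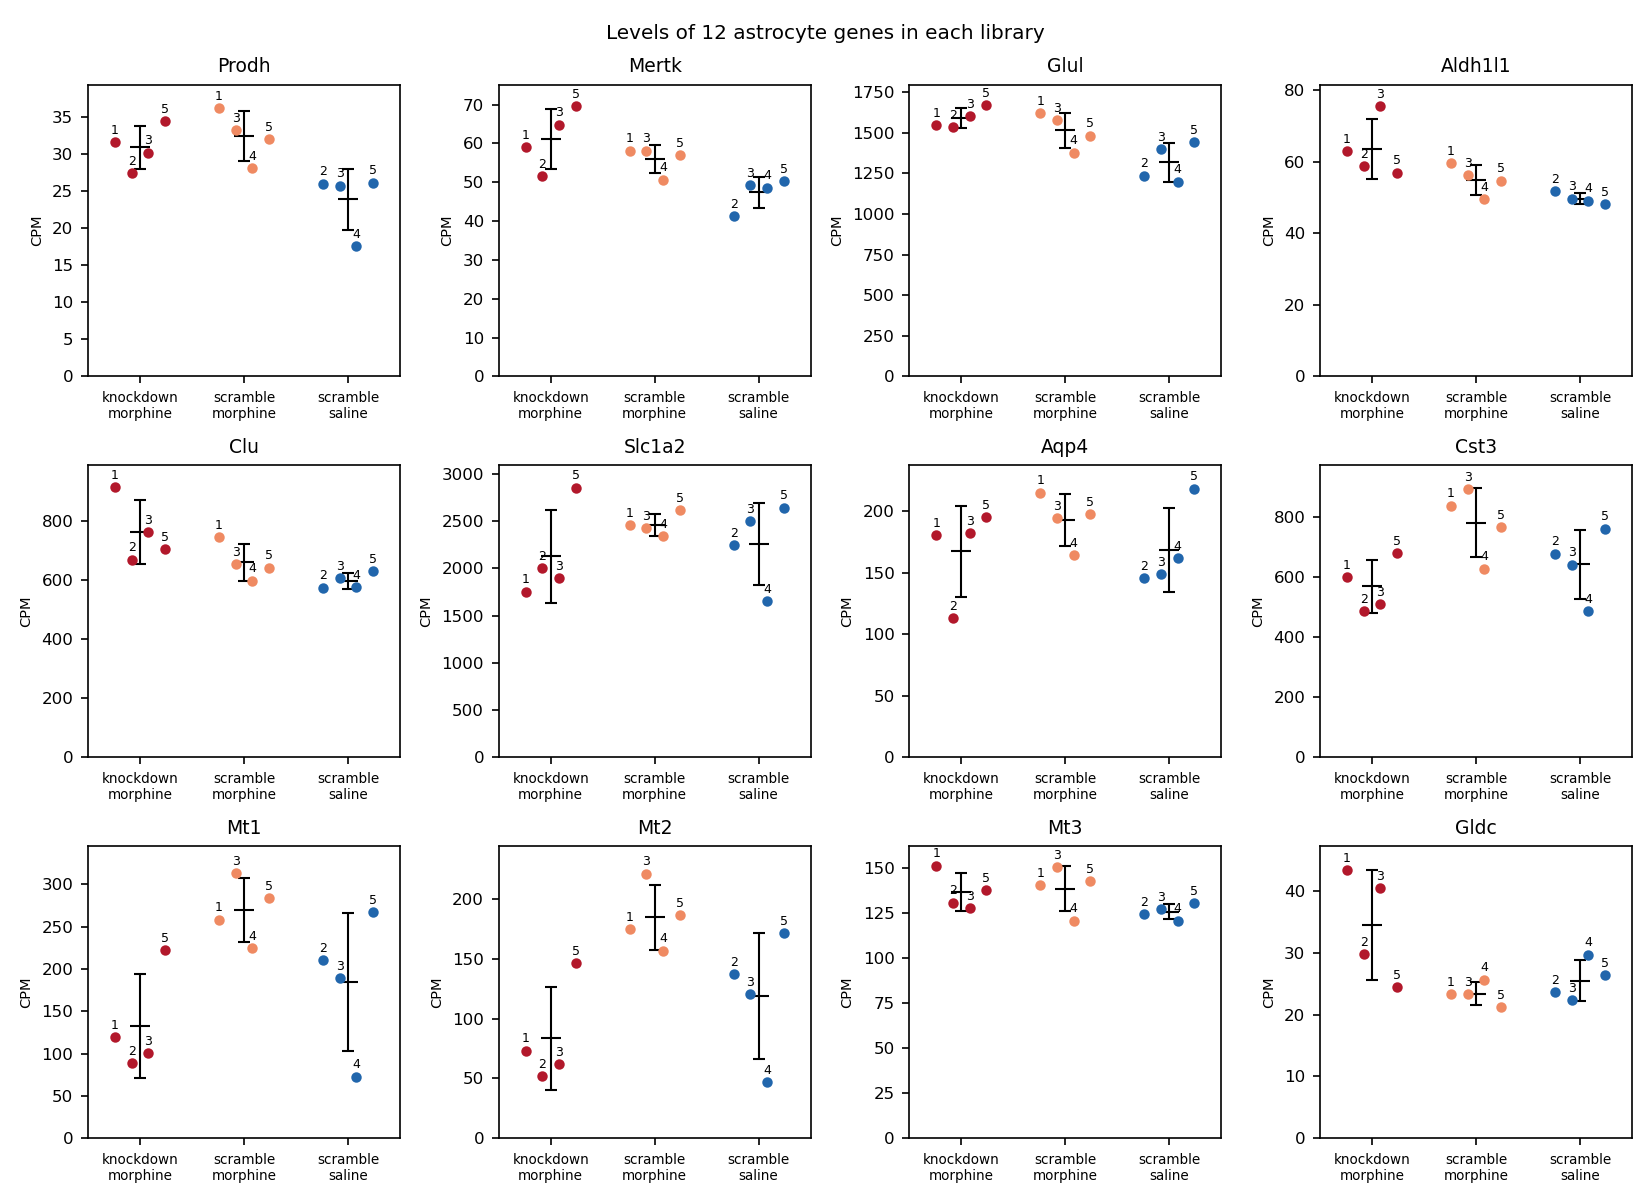
CPM of 12 astrocyte genes in each library (points, labelled by replicate number) with the mean and SD of each group of 4. Mt1 and Mt2 show the same order of libraries within each group, with knockdown replicate 5 at 223 and 147 CPM and saline replicate 4 at 73.0 and 46.9 CPM, while Mt3 stays between 121 and 151 CPM.

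Of the 36 genes, Mt1 and Mt2 had the widest spread within groups and the lowest log2 fold changes with knockdown against scramble. Metallothioneins are small cysteine-rich proteins that bind zinc and copper. Mt1 and Mt2 are induced by metals through the factor MTF1, which binds metal response elements, and by glucocorticoids, while Mt3 is a form enriched in the brain. The 3 genes lie on chromosome 8 of the mm10 assembly on the plus strand, Mt3 (ENSMUSG00000031760) from 94152607 to 94154146, Mt2 (ENSMUSG00000031762) from 94172664 to 94173568 and Mt1 (ENSMUSG00000031765) from 94179082 to 94180327. The gap between Mt3 and Mt2 is 18.5 kb and that between Mt2 and Mt1 is 5.51 kb.

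The promoter windows of the 3 genes are shown because neighbouring genes of 1 family gave different values. Each covers 250 bases before and 50 from a start given by RefSeq on GRCm38.p6, which for Mt2 is position 94172618, 46 bases ahead of the start given above. They are written on the plus strand, 5′ to 3′, at chr8:94178839-94179138 for Mt1, chr8:94172368-94172667 for Mt2 and chr8:94152357-94152656 for Mt3. Capitals mark the core of the metal response element, searched as TGCACNC or TGCGCNC on both strands.
Mt1: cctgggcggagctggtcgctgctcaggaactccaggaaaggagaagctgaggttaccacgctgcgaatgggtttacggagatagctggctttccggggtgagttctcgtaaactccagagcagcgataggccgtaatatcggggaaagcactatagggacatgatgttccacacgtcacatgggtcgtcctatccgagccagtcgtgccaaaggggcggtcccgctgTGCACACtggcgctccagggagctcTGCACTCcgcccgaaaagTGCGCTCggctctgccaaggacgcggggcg
Mt2: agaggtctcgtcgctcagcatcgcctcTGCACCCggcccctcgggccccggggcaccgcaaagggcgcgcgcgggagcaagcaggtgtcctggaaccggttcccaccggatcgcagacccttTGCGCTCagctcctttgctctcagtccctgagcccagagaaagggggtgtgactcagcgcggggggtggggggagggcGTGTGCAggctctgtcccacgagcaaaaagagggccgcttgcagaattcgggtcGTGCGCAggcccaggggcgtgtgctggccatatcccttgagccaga
Mt3: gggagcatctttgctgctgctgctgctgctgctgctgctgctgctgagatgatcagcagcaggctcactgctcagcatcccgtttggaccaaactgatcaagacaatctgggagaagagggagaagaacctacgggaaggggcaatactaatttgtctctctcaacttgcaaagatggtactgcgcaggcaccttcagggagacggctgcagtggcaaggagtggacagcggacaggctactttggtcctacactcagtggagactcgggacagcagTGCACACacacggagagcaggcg
The Mt1 window held 3 such cores, the Mt2 window 4 and the Mt3 window 1. Those at bases 253 to 259 and 271 to 277 of the Mt1 window lay after the RefSeq start. So did the core at bases 255 to 261 for Mt2 and the only core of Mt3, at bases 278 to 284. At least 3 cores were found in 1.97% of 32851 promoter windows of the same length, at least 4 in 0.517% and at least 1 in 25.7%. The glucocorticoid response element, searched on both strands as GNACANNNTGTNC, matched in the Mt1 window, in no other of the 38 windows found for 32 of the 36 genes, and in 0.475% of all windows. The RBPJ motif GTGGGAA matched the windows of Aldoc, Hes5 and Mt2, and 6.38% of all windows. The SOX core, ACAAAGG or ACAATGG, matched those of Apoe, Hes5 and Sox2 and 9.28% of all windows, and the NFI palindrome matched no window of the 36 genes and 0.807% of all. No core shown in capitals shared a base with another motif. These matches describe letters, not binding.

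Mt1 had 120, 89.1, 100.3 and 223 CPM in knockdown morphine libraries, 258, 313, 225 and 284 CPM in scramble morphine libraries and 211, 189, 73.0 and 267 CPM in scramble saline libraries. The knockdown and scramble morphine groups did not overlap, although knockdown replicate 5 and scramble morphine replicate 4 nearly met. Mt2 had 73.3, 52.1, 62.1 and 147 CPM with knockdown and morphine, 175, 221, 157 and 186 CPM with scramble and morphine, and 137, 121, 46.9 and 171 CPM with scramble and saline. Within each group the libraries stood in the same order as for Mt1. Mt3, whose window held a single core, had 151, 131, 128 and 138 CPM with knockdown and morphine, 141, 151, 121 and 143 CPM with scramble and morphine, and 125, 127, 121 and 130.4 CPM with scramble and saline, and all groups overlapped.

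With knockdown against scramble, both with morphine, the fold was 0.492 for Mt1, 0.453 for Mt2 and 0.987 for Mt3, with edgeR adjusted p of 0.369, 0.355 and 0.949. Knockdown replicate 5 stood 2.18-fold above the other knockdown libraries for Mt1 and 2.37-fold for Mt2. Without knockdown replicate 5 and saline replicate 4 the log2 fold changes were -1.39 (SE 0.15) and -1.56 (SE 0.16), with edgeR adjusted p of 0.00146 and 0.00133. In the same fit they were -1.11 (SE 0.16) and -1.19 (SE 0.17) for knockdown and morphine against scramble and saline, with adjusted p of 0.00523 and 0.00546, in place of -0.48 and -0.51 with all libraries. Both libraries were picked after seeing that they stood apart, for Mt1 and Mt2 among other genes. Leaving them out shifts the means and narrows the spread by construction, so these values describe the remaining libraries only. Mt2 shares 73.5% of its exon length with the opposite-strand model Gm45774, which had a mean count of 180, against 7389 for Mt2.

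Other genes that handle metals did not follow Mt1 and Mt2 as a list. Of 12 such genes, 4 were above 0 and 8 below with knockdown against scramble, with a median of -0.04, 1 higher and 1 lower at an unadjusted p under 0.05 (5.87% and 6.18% of all genes) and 0 called. The list of 24 genes induced by glucocorticoids, which holds Mt1, Mt2 and Glul, had a median of 0.22 with morphine against saline, 20 of 24 above 0, and -0.04 with knockdown against scramble, 10 of 24 above 0. At an unadjusted edgeR p under 0.05, 9 were higher and 0 lower in the first, against 1.67% and 1.82% of all genes. In the second 1 was higher and 2 lower, against 5.87% and 6.18%. Morphine and saline groups did not overlap for 7 of 24 on the higher side and 0 on the lower side, against 1.55% and 1.77%. DESeq2 called 1 of 24 there, against 0.0182% of its genes. With morphine against saline Plin4, a lipid droplet protein, stood at 0.79 (SE 0.20) and Zbtb16, a zinc finger factor, at 0.41 (SE 0.07), and edgeR called 0 of the list in either comparison. Comparing knockdown and morphine with scramble and saline, Plin4 rose by 1.35 (SE 0.20) and Zbtb16 by 0.48 (SE 0.07), both with an edgeR adjusted p of 0.0489. They were the 2 of 24 that edgeR called there, against 0.0137% of all genes. Over 27 alternatives the call held in 12 for Plin4 and in 11 for Zbtb16, with adjusted p up to 0.311, and both calls were lost with scaling by library totals, with limma voom, with the replicate block and with the ribosomal RNA share as a covariate. Both were also lost when any 1 of the saline libraries, of knockdown replicates 1, 2 and 3 or of scramble morphine replicates 1, 3 and 5 was left out. The log2 fold changes stayed between 1.15 and 1.44 for Plin4 and between 0.44 and 0.52 for Zbtb16.

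A wider list of 55 other astrocyte genes had medians nearer 0 than the 36 genes, on the same sides. With morphine against saline 43 of 55 were above 0, with a median of 0.12, 7 higher and 0 lower at an unadjusted p under 0.05 (1.67% and 1.82% of all genes) and 0 called. Ezr, a membrane linker of fine astrocyte processes (0.30, SE 0.11), and Gpr37l1, an orphan receptor (0.21, SE 0.08), had the smallest unadjusted p there. With knockdown against scramble 21 of 55 were above 0, with a median of -0.05, and 2 higher and 9 lower at that threshold (5.87% and 6.18% of all genes). There edgeR called 0 of 55 and DESeq2 called 2, against 0.828% of its genes. Dio2, the deiodinase that activates thyroid hormone, stood at 0.58 (SE 0.14, edgeR adjusted p = 0.260) and Tril, a cofactor of innate immune receptors, at -0.32 (SE 0.08, adjusted p = 0.248).

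Of 24 cholesterol synthesis and export genes, a pathway active in astrocytes, 20 were below 0 with knockdown against scramble, with a median of -0.31, and 13 were lower, against 6.18% of all genes, and 0 higher, against 5.87%, at an unadjusted p under 0.05, with 0 called. Sqle, squalene epoxidase, stood at -0.38 (SE 0.11, edgeR adjusted p = 0.272). With morphine against saline 18 of 24 were above 0, with a median of 0.09. The 15 genes of glycogen and lactate metabolism and the 13 of GABA, glycine and glutamine handling had medians of 0.03 and -0.01 with knockdown against scramble and of 0.03 and 0.10 with morphine against saline, and edgeR called 0 of either.

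Markers of other cell types stood on 1 side of 0 in some lists as well. With knockdown against scramble, 0 of 15 oligodendrocyte markers were above 0 (median -0.36), and their summed level was 1322 to 2239 CPM with knockdown and morphine against 2035 to 2781 CPM with scramble and morphine. Ppp1r14a, a phosphatase inhibitor gene of this list, stood at -0.89 (SE 0.23, edgeR adjusted p = 0.264). All 13 markers of mural cells and meningeal fibroblasts were above 0 (median 0.37), with sums of 387 to 550 CPM against 287 to 413 CPM. Of 13 microglia markers 1 was above 0 (median -0.23), with sums of 605 to 959 CPM against 762 to 1196 CPM.

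Of 14 reactive glia genes 12 were above 0 (median 0.43), although their summed level, 415 to 1202 CPM with knockdown and morphine against 657 to 1111 CPM with scramble and morphine, had a lower mean with knockdown. Neuron markers had medians of -0.09 for 16 excitatory and -0.0008 for 13 inhibitory genes. At an unadjusted edgeR p under 0.05, 2 inhibitory genes were higher and 5 lower, and 0 excitatory genes were higher and 3 lower. The shares of all genes were 5.87% and 6.18%. DESeq2 called 2 of the inhibitory and 0 of the excitatory genes, against 0.828% of its genes. Endothelial markers had a median of 0.23, with 10 of 11 above 0. No marker of these lists was at 0 in a group except Tmem212, an ependymal gene, at 0 in both morphine groups, and edgeR called 0 of these markers in that comparison. With morphine against saline, medians were 0.06 for oligodendrocytes, 0.18 for mural cells and fibroblasts, -0.0008 for microglia, -0.05 for reactive glia and -0.07 for endothelium. They were -0.73 for 5 blood genes, 0 of them above 0, and 0.41 for 6 ependymal and choroid plexus genes, 5 of them above 0. Their part in the astrocyte values was not tested. With the ribosomal RNA share as a covariate, the median of the 36 astrocyte genes was 0.21 with morphine against saline and -0.15 with knockdown against scramble, and 6 of 36 were above 0 in the second. The share did not overlap between the groups in either comparison, so it cannot be told apart from drug or virus.

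**Figure D5:**
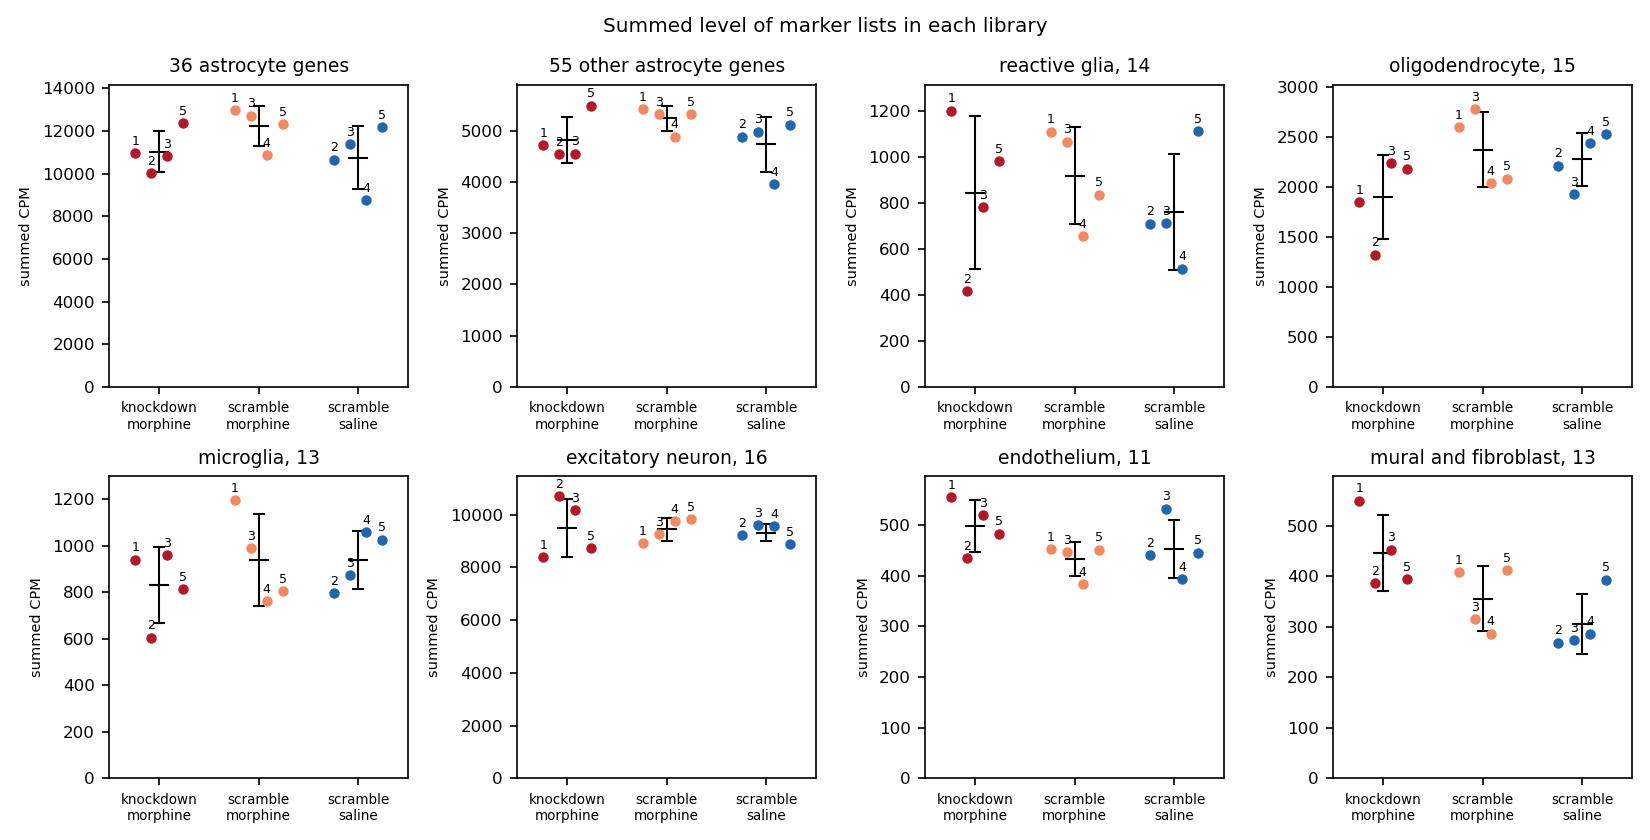
Summed CPM of marker lists in each library (points, labelled by replicate number) with the mean and SD of each group of 4. The 36 astrocyte genes sum to between 8745 and 12970 CPM with overlapping groups, and the oligodendrocyte sum is lowest in knockdown replicate 2, at 1322 CPM.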

How the data were processed

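The table deposited by the authors gives read counts, as whole numbers, for each gene in 12 libraries. Per the labels' protocols, poly(A) RNA was selected on oligo(dT) beads and the second strand was marked with dUTP. Tools named in the submitters' processing notes, with no roles, are StringTie 1.3.4d, HISAT2 2.0.4, cutadapt 1.9, edgeR and DESeq2, and the build is mm10. Neither the annotation release nor the use of strand in counting is given in the sources used here, so genes with overlapping exons are uncertain. Of 55401 gene IDs, 55141 matched a symbol, and positions came from GENCODE mouse release M21. The others took 0.0126 to 0.0275% of counts.

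The test was edgeR 4.0.16 (R 4.3.3): filterByExpr with a minimum of 10 counts, TMM scaling (factors 0.939 to 1.04), and a robust quasi-likelihood fit of the 3 group means to all 12 libraries, with 9 residual degrees of freedom. The biological coefficient of variation was 23.2%. All p-values are two-sided and were adjusted over 21958 genes by the Benjamini-Hochberg method, with 0.05 as the threshold. CPM uses TMM-scaled totals, and levels per kilobase divide by the length of all annotated exons of a gene, merged over its transcripts. An order by this measure depends on the annotation as well as on abundance. Libraries of the same group were not copies of each other (chi-square per gene of at least 12.5). The fitting steps were tested on simulated data.

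The astrocyte genes and the other lists were chosen with earlier results of these data known, so no test over a list was made and lists are described by counts and medians. Values in every library are given for the 4 genes with the smallest unadjusted p in each comparison and for 13 defining genes set by name, and of other lists at most 3 genes per comparison are named. Genes whose groups do not overlap are named as well. Alternatives were other scalings and filters, DESeq2 1.42.0, voom with sample weights in limma 3.58.1, the compared groups alone, a replicate block, a surrogate variable from sva 3.50.0, the ribosomal RNA share as a covariate and each library left out. The fits without 2 libraries, and the count of genes above 0 under every alternative, were chosen after seeing the data. Promoter sequences came from RefSeq.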

Additional observations from a re-analysis of the deposited data

Results flagged for a closer look

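Of 108 groups of 4 libraries (36 astrocyte genes in 3 groups), 9 held a library far from the other 3 by Dixon's ratio, above the critical value for 4 samples. Chance flags about 1 in 20 such groups. Scramble morphine replicate 4 was the low library for 5 genes: Gjb6 (49.84 CPM against 74.25 to 79.13 in the others), S100b (48.69 against 66.53 to 69.14), Aldoc (645.1 against 728.3 to 732.7), Mertk (50.64 against 56.94 to 58.16) and Ttyh1 (437.5 against 466.2 to 471.8). Scramble saline replicate 4 was the low library for 3 genes: Ntsr2 (59.38 CPM against 94.88 to 102), Prodh (17.62 against 25.76 to 26.17) and Plpp3 (156.6 against 184.4 to 189.3). Knockdown morphine replicate 5 was the high library for Atp1b2, at 458 CPM against 327 to 343.9. No cause was tested.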

How the results depend on the processing

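The median log2 fold change of the 36 astrocyte genes kept its sign under every alternative with morphine against saline (0.12 to 0.23) and with knockdown against scramble, both with morphine (-0.15 to -0.02). For knockdown and morphine against scramble and saline it ran from -0.0039, without saline replicate 4 and knockdown replicate 5, to 0.17. In 972 values per comparison from 27 alternatives, single genes changed sign 31, 30 and 61 times, in 7, 11 and 13 genes. Of the genes with an unadjusted p under 0.05, 1 reversed: Clu with knockdown against scramble was -0.0156 with the ribosomal RNA share as a covariate. That share did not overlap between the groups compared, so it cannot be told apart from the virus.

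Astrocyte genes called with knockdown against scramble numbered 0 in the main analysis, 1 by DESeq2, 10 without saline replicate 4 and knockdown replicate 5, and 0 to 1 with each library left out. For knockdown and morphine against scramble and saline the counts were 0, 4 and 6, and 0 with any library left out. With morphine against saline they were 0 throughout.

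Counts over all genes with morphine against saline were 0, but 4 by DESeq2 and 1 with the compared groups alone. With knockdown against scramble they were 0, but 2 without a low-count filter, 164 by DESeq2, 1 with voom, 1 with a surrogate variable, 1284 without the 2 libraries, and 0 to 375 with each library left out. For knockdown and morphine against scramble and saline they were 3, but 0 with library totals, voom or the ribosomal RNA covariate, 5 without a filter or with the compared groups alone, 147 by DESeq2, 15 with a surrogate variable, 1079 without the 2 libraries, 1 without saline 4 and scramble morphine 4, and 0 to 55 with each library left out. The cause was not tested.

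Pairing by replicate number was weak at most: deviations of 9 same-numbered pairs correlated at -0.0194 to 0.127. Those of differently numbered pairs correlated at -0.18 to 0.121. With the replicate number as a block the counts over all genes were 1, 2 and 0 in the order of the comparisons above, and 0 astrocyte genes were called. The lowest count of an astrocyte gene in any library was 376, for Hes5. Some groups had a narrow spread, such as Hes5 with scramble and saline (10.17 ± 0.50 CPM) and Slc7a10 with scramble and morphine (22.47 ± 0.60 CPM). There counting error may make up much of the spread between libraries.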
